A study of Mus musculus with 6 samples.

Results

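The genes described here are the mouse chemokines that act on the receptor CXCR2, the platelet chemokines encoded beside them, and the receptors that take them up. They are 9 genes, Cxcl1, Cxcl2, Cxcl3, Cxcl5, Cxcl15, Ppbp, Pf4, Cxcr2 and Ackr1, chosen by name. Every probe set annotated to exactly one of these symbols was used, 12 probe sets of 45101 on the array. They were measured in colon tumours from 3 IL8 transgenic mice, which carry the human gene, and from 3 wild type control mice, all on a CBA/C57BL/6 background and all labelled male, with 1 array per sample. The sources used here do not give the promoter that drives the transgene, the age of the mice, how the tumours arose, or whether an array holds 1 tumour or several. The p-values therefore cover the spread among these 6 samples and no more. Values are log2 expression made by the authors with GCRMA, and every difference below is transgenic minus control on that log2 scale.

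Human IL8 (CXCL8) draws neutrophils into tissue by binding CXCR1 and CXCR2. Mice lack the IL8 gene, and Cxcl1, Cxcl2, Cxcl3, Cxcl5 and Ppbp serve as the ligands of mouse CXCR2, most of them induced in epithelium, stroma or myeloid cells by interleukin 1, TNF and interleukin 17 through NF-kB. Ppbp and Pf4 are stored in platelet granules, and Pf4 carries the same fold without acting on CXCR2 as these ligands do. Ackr1, the Duffy antigen receptor of venules and red cells, binds many inflammatory chemokines without G protein signalling. The comparison asks whether the endogenous counterparts of the transgene differ in tumours that carry it.

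Of the 9 genes, 7 lie on chromosome 5 and are consecutive in the RefSeq annotation, in the order Cxcl5, Ppbp, Pf4, Cxcl3, Cxcl15, Cxcl1 and Cxcl2, while Cxcr2 and Ackr1 lie on chromosome 1. RefSeq promoter sequences (assembly GRCm38.p6, 250 bases before to 50 bases after the start) were matched for 8 of the 9 genes, and there was no entry for Cxcl5. Before their starts the promoters of Cxcl1, Cxcl2 and Cxcl3 share 2 runs of at least 8 letters, GGGAATTTCCC, which has the form of an NF-kB site, and ATAAAAGG, which has the form of a TATA box. The runs were picked because these 3 promoters share them. The 120 bases before the start are shown for these ligands and for the platelet chemokines of the same cluster, 5′ to 3′ on the coding strand, with either run on either strand in capitals.
Cxcl1, chr5:90891125-90891244: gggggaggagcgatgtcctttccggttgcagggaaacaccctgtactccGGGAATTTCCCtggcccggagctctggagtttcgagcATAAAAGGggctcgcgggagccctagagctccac
Cxcl2, chr5:90903779-90903898: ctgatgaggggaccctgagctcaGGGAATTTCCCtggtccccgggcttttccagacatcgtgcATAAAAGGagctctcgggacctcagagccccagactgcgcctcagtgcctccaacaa
Cxcl3, chr5:90785981-90786100: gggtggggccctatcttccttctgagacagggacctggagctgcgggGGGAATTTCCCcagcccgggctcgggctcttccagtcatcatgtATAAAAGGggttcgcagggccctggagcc
Ppbp, chr5:90768398-90768517: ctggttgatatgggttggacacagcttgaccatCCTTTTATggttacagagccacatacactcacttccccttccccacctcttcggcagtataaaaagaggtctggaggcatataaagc
Pf4, chr5:90772315-90772434: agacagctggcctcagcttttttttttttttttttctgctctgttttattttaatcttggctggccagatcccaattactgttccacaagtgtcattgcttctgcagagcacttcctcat

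GGGAATTTCCC began 71 bases before the start in Cxcl1, 97 bases before it in Cxcl2 and 73 bases before it in Cxcl3, each on the coding strand. Searched on both strands, it was in 0.0426% of the 32851 promoters of this length and in none of the other 5 member promoters. ATAAAAGG began 34, 57 and 29 bases before the start in Cxcl1, Cxcl2 and Cxcl3. It was in 1.76% of all promoters and, on the other strand, also in that of Ppbp. A match is a description of the sequence. No factor binding was measured here.

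Across the array, 42.5%, 41.8% and 42.5% of probe sets reached a log2 value of 4 on the transgenic arrays and 42.3% to 43% on the control arrays. Pairs of arrays correlated over tested probe sets at 0.925 to 0.954 within the transgenic group and 0.975 to 0.983 within the control group. All 19 annotated colon epithelium markers were above 4 on at least 1 array, with array means of 11.14 to 11.99 in transgenic and 11.03 to 11.95 in control tumours. Transgenic array 2 stood apart: 25 of 26 squamous epithelium genes had their highest value there, with an array mean of 9.13 against 3.59 to 3.93 on the other 5 arrays, and Krtdap was at 12.31 against 2.62 or less. Xist was at 12.27 to 12.89 on the transgenic arrays and 2.33 to 2.64 on the control arrays although every animal is labelled male, so transgene and Xist status cannot be told apart in any difference given here.

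Testing was limited to probe sets with a log2 value of 4 or more on at least 3 of the 6 arrays. This kept 8 of the 12 probe sets, standing for 6 of the 9 genes: Cxcl1, Cxcl2, Cxcl3, Cxcl5, Ppbp and Pf4. Both probe sets of Cxcl15 and those of Cxcr2 and Ackr1 did not pass. Of the 6 genes, 0 had a limma adjusted p under 0.05, beside 0.0486% of the 10289 genes tested and 0.0570% of the 19310 probe sets tested, and 1, Cxcl5, had an unadjusted p under 0.05, beside 5.82% of genes. The transgenic and control arrays did not overlap for 2 of the 6, Cxcl5 (lower) and Cxcl3 (higher), beside 11.5% of all genes, 6.75% lower and 4.77% higher. The 6 genes split evenly, 3 higher and 3 lower, with a median difference of 0.015, beside 46.2% higher and a median of -0.025 over all genes. The sign of the members' median turned when transgenic array 1 (-0.41), control array 1 (-0.04) or control array 2 (-0.13) was left out, and it was 0.14 with transgenic array 3 out and 0.22 with control array 3 out. In bulk tumour RNA, fewer cells of a type and less RNA per cell cannot be told apart.

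**Figure D1:**
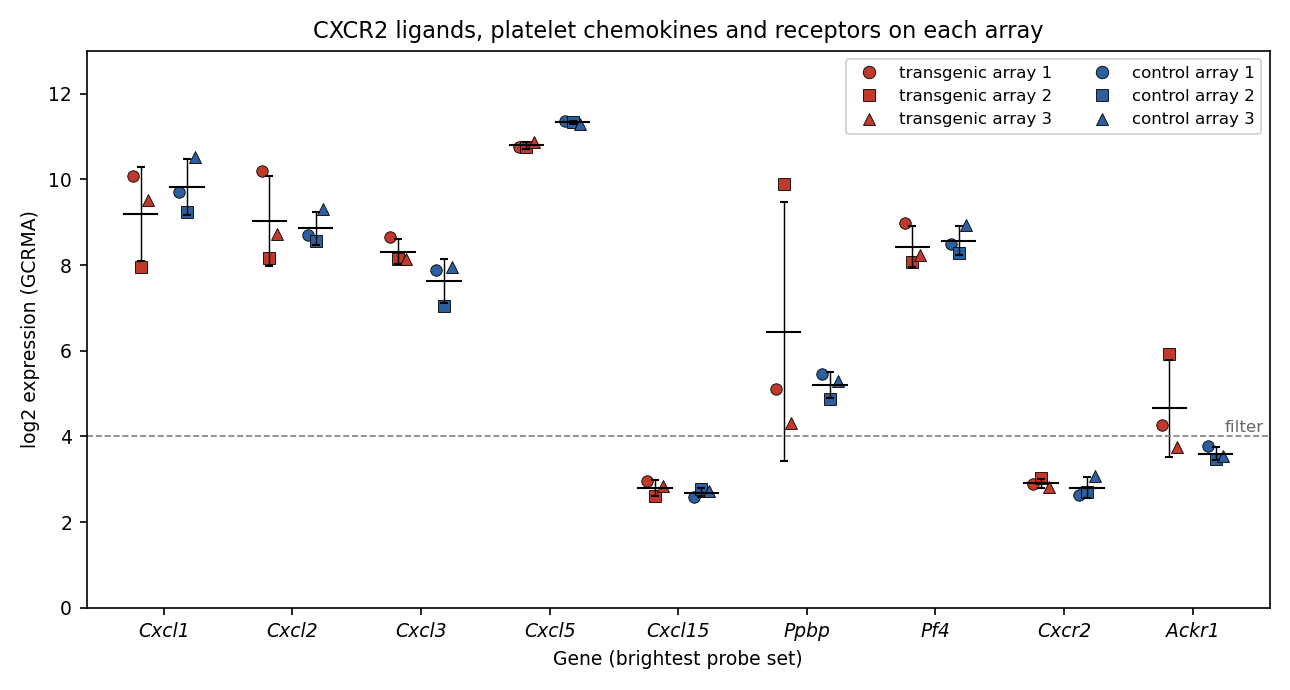
Log2 expression (GCRMA, vertical axis) of the 9 genes at their brightest probe set, with each transgenic array in red left of each control array in blue, lines at group means, bars of 1 SD (n = 3 arrays per group) and a dashed line at the filter level of 4. Cxcl5 is the tightest gene, with transgenic arrays at 10.74 to 10.88 and control arrays at 11.29 to 11.37, while Ppbp is spread by transgenic array 2, at 9.90.

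Cxcl5, the epithelial ligand also called LIX, was the member with the smallest p. Its log2 values were 10.74, 10.74 and 10.88 on transgenic arrays 1 to 3, against 11.37, 11.34 and 11.29 on control arrays 1 to 3. All 3 transgenic arrays lay below all 3 control arrays. The means were 10.79 ± 0.08 in transgenic and 11.33 ± 0.04 in control tumours (SD, n = 3 each), a difference of -0.54 ± 0.13 (SE), or 1.46-fold lower, with a 95% confidence interval of -0.87 to -0.22. The limma unadjusted p was 0.00592 and the adjusted p 0.806, so the difference did not pass. Its spread was small in both groups: 7.4% of probe sets tested had a smaller SD among the transgenic arrays and 3.52% among the control arrays. Without transgenic array 2 the difference was -0.52.

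Cxcl3, a ligand close to Cxcl1 and Cxcl2 in sequence, ran the other way. Its log2 values were 8.65, 8.13 and 8.15 on the transgenic arrays, against 7.88, 7.04 and 7.95 on the control arrays. The groups did not overlap, and the gap between the lowest transgenic array and the highest control array was narrow. The means were 8.31 ± 0.30 in transgenic and 7.62 ± 0.51 in control tumours (SD, n = 3 each), a difference of 0.69 ± 0.30 (SE, 95% interval -0.04 to 1.41, limma adjusted p 0.806). Control array 2 was the low one, and without it the difference was 0.39.

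Cxcl1, known as KC, a main neutrophil attractant in mouse, had 3 tested probe sets. At the brightest the log2 values were 10.08, 7.95 and 9.52 on the transgenic arrays, against 9.69, 9.23 and 10.53 on the control arrays. At the next they were 9.33, 7.37 and 8.76 on the transgenic arrays, against 8.99, 8.38 and 9.83 on the control arrays. The third lay near the filter level, at 4.56, 3.81 and 4.11 on the transgenic arrays against 4.18, 3.89 and 5.24 on the control arrays. The 3 probe sets ranked the 6 arrays in the same order, control array 3 highest and transgenic array 2 lowest, and the groups overlapped at each. The differences were -0.63 ± 0.60, -0.58 ± 0.59 and -0.28 ± 0.39 (SE), at limma adjusted p of 0.832, 0.836 and 0.885. The 95% interval at the brightest probe set was -2.09 to 0.83. Without transgenic array 2 its difference was -0.017, and without transgenic array 1 it was -1.08.

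Cxcl2, known as MIP-2, an early product of stimulated macrophages and epithelium, was at 10.19, 8.16 and 8.71 on the transgenic arrays, against 8.69, 8.57 and 9.30 on the control arrays. The transgenic arrays held both the highest and the lowest of the 6 values. The difference was 0.17 ± 0.53 (SE, 95% interval -1.12 to 1.45, limma adjusted p 0.951), but -0.42 when transgenic array 1 was left out and 0.60 when transgenic array 2 was. Cxcl1, Cxcl2 and the platelet chemokine Pf4 were each lowest on transgenic array 2, and transgenic array 1 and control array 3 held the 2 highest values of each. Among all probe sets tested, 94.3% had a smaller transgenic SD than Cxcl1, 93.7% a smaller one than Cxcl2 and 46.7% a smaller one than Cxcl3. For the control SD these shares were 95.2%, 82.4% and 90.5%.

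Cxcl15, or lungkine, a chemokine of lung epithelium, lay under 4 on every array at both probe sets. The brighter one was at 2.97, 2.60 and 2.84 on the transgenic arrays and at 2.58, 2.78 and 2.72 on the control arrays. It is the gene that lies between Cxcl3 and Cxcl1 on the chromosome, both of which were above 7 on all 6 arrays.

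Ppbp, whose product is cut to the CXCR2 ligand NAP-2, was at 5.11, 9.90 and 4.32 on the transgenic arrays, against 5.46, 4.87 and 5.29 on the control arrays. Transgenic array 2 alone was high, and the other transgenic arrays were no higher than control array 1. The difference was 1.24 ± 1.40 (SE, 95% interval -2.15 to 4.62, limma adjusted p 0.851), and -0.49 without transgenic array 2. Of all probe sets tested, 99.8% had a smaller SD among the transgenic arrays.

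Pf4, platelet factor 4, was at 8.98, 8.08 and 8.24 on the transgenic arrays, against 8.50, 8.27 and 8.94 on the control arrays. Its lowest value was on transgenic array 2, the array on which Ppbp was highest. The difference was -0.14 ± 0.30 (SE, 95% interval -0.86 to 0.59, limma adjusted p 0.926), and it was 0.038 without transgenic array 2 and 0.045 without control array 3.

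Of 24 annotated platelet and megakaryocyte genes outside the cluster, 8 passed the filter, beside 10289 of 18194 annotated genes on the array. Of the 24, 14 lay under 4 on every array, a share that was not counted over all genes. Among them were the fibrinogen receptor subunit Itga2b (highest 2.64), the glycoproteins Gp5 (2.43), Gp6 (2.15) and Gp9 (2.85), the receptor Clec1b (2.61) and the tubulin Tubb1 (2.08). The 8 genes past the filter had 3 higher, 5 lower and 0 called by limma, none at an unadjusted p under 0.05, with a median of -0.12. With 1 array left out that median ran from -0.33 (transgenic array 1 out) to -0.029 (control array 3 out), and it was within 1.5 times of its value only with control array 2 out. The 3 of smallest p were Selp, Plek and Alox12, and Selp, the adhesion receptor P-selectin of platelets and endothelium, was at 6.01, 8.31 and 6.10 on the transgenic arrays against 6.55, 4.86 and 5.42 on the control arrays. The array mean of all 8 platelet genes past the filter was 7.21, 6.64 and 6.82 on the transgenic arrays, against 6.79, 6.80 and 7.07 on the control arrays. These 8 were Alox12, Gp1bb, Itgb3, Plek, Selp, Slc2a3, Thbs1 and Vwf. Selp and Vwf are also counted among the endothelium genes below, so the mean is not one of platelets alone. Squamous genes were high on transgenic array 2, and their part in the Ppbp value there was not tested. Macrophage genes past the filter also had their lowest mean on transgenic array 2, at 6.43 against 7.15 and 7.72 on transgenic arrays 1 and 3 and 7.86 to 8.35 on the control arrays, and their part in the Pf4 values was not tested. Of 15 macrophage genes past the filter, 14 were lower in transgenic tumours and 1 higher, with 0 called by limma, 9 at an unadjusted p under 0.05 and a median of -1.02, or -0.62 with transgenic array 2 out. Itgax, counted in both the 14 and the 9, passed the filter only through the control arrays (4.05 to 4.91, transgenic 2.70 to 3.88). Its direction was thus fixed by the filter. Of 15 fibroblast genes past the filter, 14 were lower and 1 higher, with 0 called by limma, 3 at an unadjusted p under 0.05 and a median of -0.53, or -0.29 with transgenic array 1 out and -0.89 with transgenic array 2 out.

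**Figure D2:**
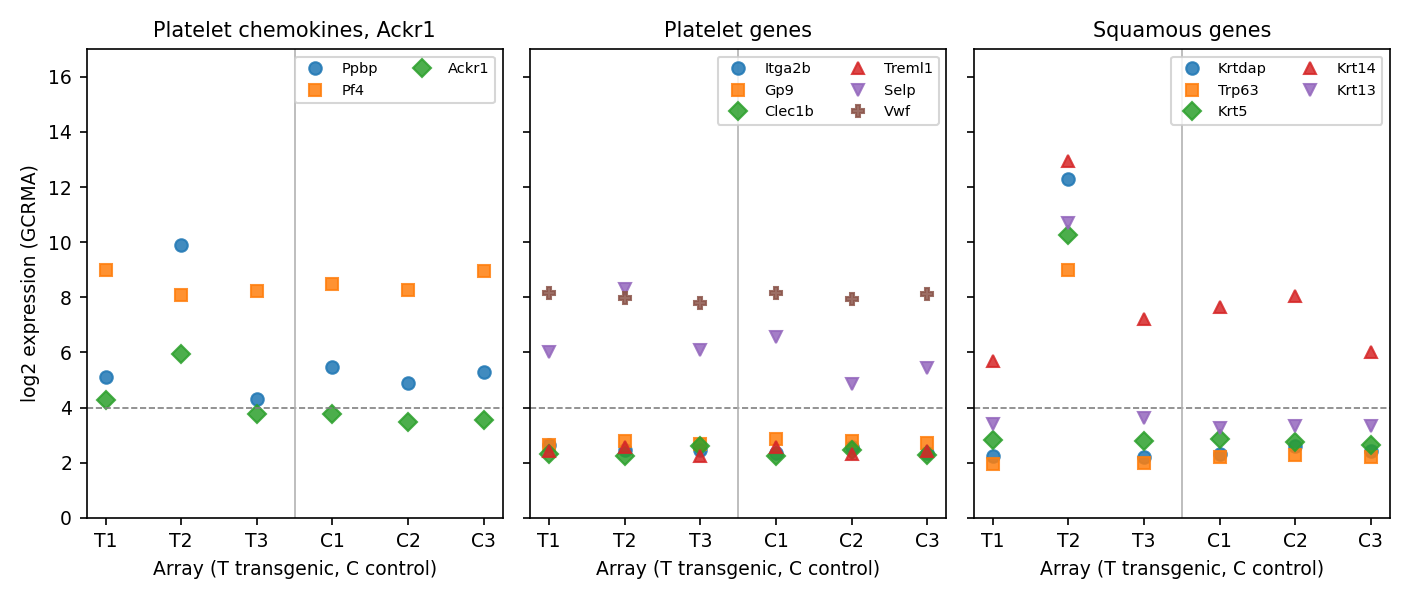
Log2 expression (GCRMA, vertical axis) on the 6 arrays, with transgenic (T) left of control (C), for Ppbp, Pf4 and Ackr1, for 6 platelet genes and for 5 squamous epithelium genes, with a dashed line at 4. On T2 Ppbp (9.90), Ackr1 (5.93), Selp (8.31) and the squamous genes peak while Itga2b, Gp9, Clec1b and Treml1 stay under 4 on every array.

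**Figure D3:**
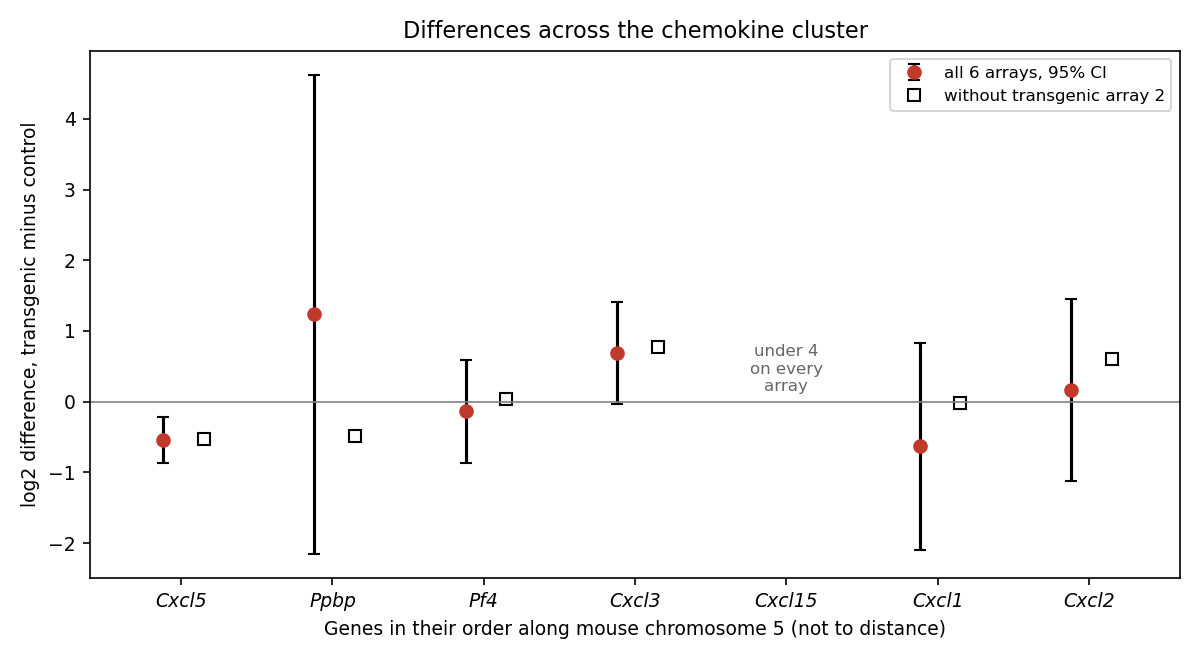
Log2 difference (transgenic minus control, vertical axis) of the 7 clustered genes in their order on chromosome 5, with red points and 95% intervals from all 6 arrays and open squares without transgenic array 2. The sign alternates from Cxcl5 (-0.54) through Ppbp (1.24), Pf4 (-0.14), Cxcl3 (0.69) and Cxcl1 (-0.63) to Cxcl2 (0.17), and of these only the Cxcl5 interval leaves out 0.

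Along the cluster the signs of the measured differences alternated from gene to gene, as the plot of differences in gene order shows, with Cxcl15 skipped. This order was noticed after the values were seen, and no neighbouring pair was tested against each other. Without transgenic array 2, Ppbp turned to -0.49 and Pf4 to 0.038, and the alternation was gone. It was also gone without transgenic array 1 (Cxcl2 -0.42 beside Cxcl1 -1.08) and without control array 3 (Pf4 0.045 beside Ppbp 1.28).

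Cxcr2, the receptor of these ligands on neutrophils, was at 2.89, 3.03 and 2.82 on the transgenic arrays, against 2.63, 2.70 and 3.09 on the control arrays. It thus lay under 4 on every array of both groups. Ackr1 was at 4.28, 5.93 and 3.76 on the transgenic arrays, against 3.77, 3.47 and 3.55 on the control arrays. Only transgenic arrays 1 and 2 were above 4, too few for the filter, so no test was made. The 12 annotated erythroid genes all lay under 4 on every array, so 0 passed the filter, beside 10289 of 18194 annotated genes. Of 15 venule and endothelium genes past the filter, 12 were lower in transgenic tumours and 3 higher, with 0 called by limma, 1 at an unadjusted p under 0.05 (Sox18) and a median of -0.29. Their array mean was 6.49, 6.36 and 6.54 on the transgenic arrays and 6.69 to 6.86 on the control arrays.

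Neutrophil genes, which would carry Cxcr2, were tested for 10 of 22 annotated, 7 higher and 3 lower, with 0 called by limma, 2 (S100a8 and S100a9) at an unadjusted p under 0.05 and a median of 0.28. Leaving out transgenic array 1 gave a median of -0.13, and leaving out transgenic array 2 gave 0.67. It was 0.48 with transgenic array 3 out, 0.06 with control array 1 out and 0.55 with control array 2 out. S100a8 differed by 0.78 and S100a9 by 1.02, each without overlap and each highest on transgenic array 2, the array with high squamous genes. Over the 10 genes the groups were apart for 2 higher and 1 lower, beside 4.77% and 6.75% of all genes. The other higher genes were Ltf (2.09), Chil3 (1.29), Fpr2 (0.29), Il1r2 (0.28) and Gsr (0.08), all with overlap. Ltf was highest on transgenic array 2, at 10.27, and Chil3 on transgenic array 1, at 7.09. The 3 lower genes were Padi4 (-2.05), Mmp9 (-1.95, without overlap) and Lcn2 (-1.77). Of the 22, 6 lay under 4 on every array.

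The inducers of these chemokines were read from a list of cytokines, receptors and NF-kB pathway genes. Of 24 genes past the filter, 11 were higher and 13 lower, with 0 called by limma, 4 at an unadjusted p under 0.05 and a median of -0.02. The sign of that median turned when transgenic array 2 (0.11), transgenic array 3 (0.04), control array 2 (0.01) or control array 3 (0.01) was left out, and the value was -0.11 with transgenic array 1 out. The 3 with the smallest p were Il1r1, Il17re and Nfkbie. Il1r1, the signalling receptor of interleukin 1, was at 6.09, 6.58 and 6.61 on the transgenic arrays, against 7.06, 7.57 and 8.29 on the control arrays, without overlap. The difference was -1.21 ± 0.34 (SE, limma adjusted p 0.806). Il17re, a subunit of the interleukin 17C receptor of epithelium, was at 6.73, 7.45 and 5.58 on the transgenic arrays, against 5.22, 4.68 and 3.52 on the control arrays, also without overlap (difference 2.11 ± 0.60, SE, limma adjusted p 0.806). Nfkbie, an inhibitor of NF-kB, differed by -1.02 ± 0.32 (SE, limma adjusted p 0.806), again without overlap. Over the 24 genes the groups were apart for 1 higher and 4 lower, beside 4.77% and 6.75% of all genes. The 3 were picked by p, so their lack of overlap adds nothing to it.

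Transgenic array 1, where Cxcl2, Cxcl3 and Pf4 were highest, also held the highest value of 10 of these 24 inducer genes. That is 41.7%, beside 23.2% of all genes tested. The same share in other lists past the filter ran from 0% (macrophage, fibroblast and squamous) to 50% (platelet), with 40% for neutrophil genes. A link between inducers and chemokines was not tested. The following were named after their values were seen. Tnf was at 5.84, 3.85 and 4.51 on the transgenic arrays, against 4.87, 5.01 and 5.34 on the control arrays. Tnfaip3, a feedback inhibitor of NF-kB, was at 10.21, 8.97 and 9.41 on the transgenic arrays, against 9.49, 9.31 and 9.08 on the control arrays. Both were highest on transgenic array 1 and lowest on transgenic array 2, as Cxcl2 was. The transcription factor gene Egr1 was at 11.37 on transgenic array 1 and at 9.74 to 10.12 on the other 5. Il1b followed neither array, with 7.78, 7.59 and 8.41 on the transgenic arrays against 6.96, 8.38 and 9.42 on the control arrays.

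**Figure D4:**
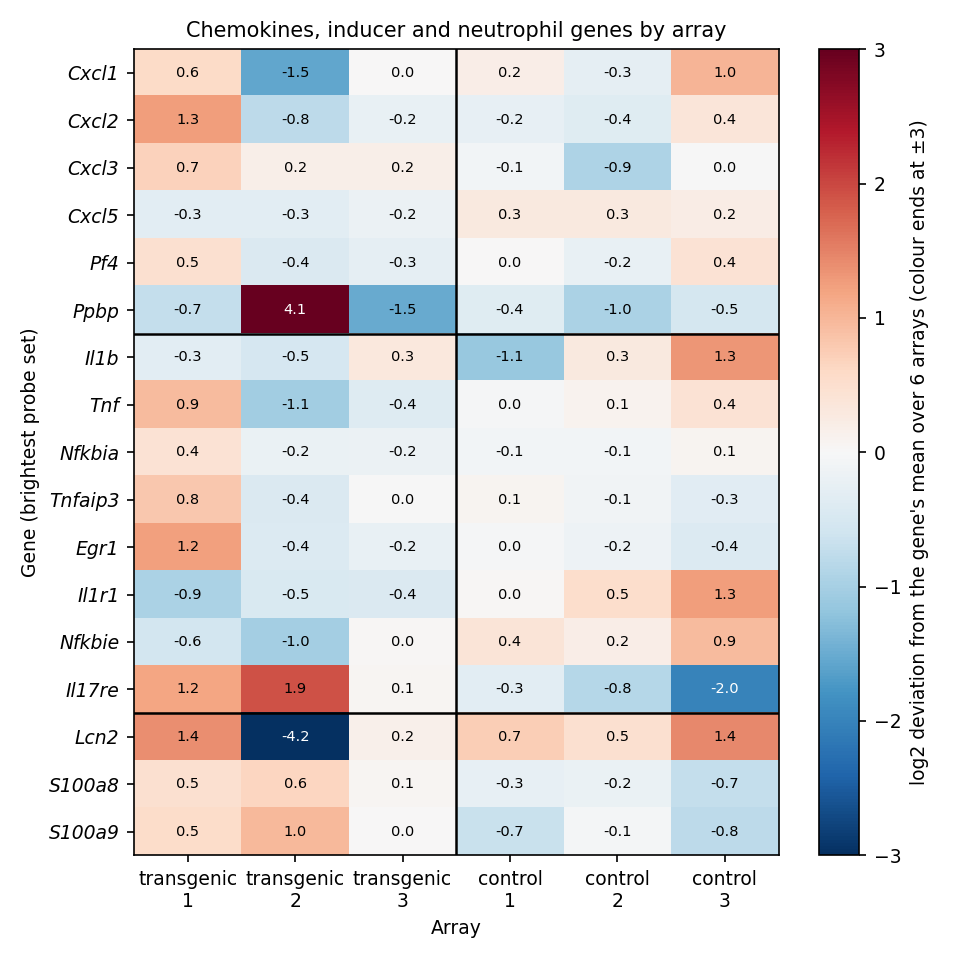
Deviation of each gene's log2 value from its own mean over the 6 arrays (red above, blue below, colour scale ending at ±3), for 6 chemokines, 8 inducer pathway genes and 3 neutrophil list genes, with transgenic arrays left of control arrays. Cxcl1, Cxcl2, Pf4, Tnf and Lcn2 are below their means on transgenic array 2, and Ppbp and Il17re are above theirs. The groups do not overlap for Cxcl3, Cxcl5, Il1r1, Nfkbie, Il17re, S100a8 and S100a9.

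Genes that set chemokine mRNA decay were all past the filter, 12 of 12, with 5 higher and 7 lower, 0 called by limma, 1 at an unadjusted p under 0.05 and a median of -0.03. With transgenic array 3 out the median turned to 0.02, and it was -0.0024 with control array 1 out and -0.02 with control array 2 out. The gene with that p was Zfp36l2, a protein that binds AU-rich mRNA ends, which was at 11.48, 11.59 and 10.96 on the transgenic arrays against 10.92, 10.83 and 10.61 on the control arrays (difference 0.55 ± 0.21, SE, limma adjusted p 0.806). Mapkapk2, a kinase that steadies such mRNAs, differed by -0.39 and Elavl1, which binds them, by -0.36, both at a limma adjusted p of 0.806. Of 20 genes of CXCR2 signalling past the filter, 12 were higher and 8 lower, with 0 called by limma, 0 at an unadjusted p under 0.05 and a median of 0.06. That median was 0.02 with transgenic array 2 out, 0.10 with transgenic array 3 out and 0.12 with control array 1 out. The actin-binding protein gene Lasp1, whose product binds the CXCR2 tail, differed by 0.36, the arrestin gene Arrb2 by -0.49 and the G protein regulator gene Rgs1 by 0.84, the last with 6.16 on transgenic array 1 and 4.12 or less elsewhere.

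The genes whose log2 values followed each member most closely over the 6 arrays were taken by Pearson correlation among 4854 genes with an SD of at least 0.3. Each correlation describes 6 arrays that share their labelling and normalization. Cxcl1 was followed by Gng10, a G protein gamma subunit (r = 0.988), Phf20 (0.985) and Zfp647 (0.980). Cxcl2 was followed by Cp, ceruloplasmin (0.994), Ppp2r3c (0.991) and the stress response gene Ier3 (0.988). Cxcl3 was followed by the matrix gene Tnc (0.997), Wsb1 (0.984) and Zbtb44 (0.958). Between 5 genes (for Cxcl3) and 34 genes (for Ppbp) reached 0.95 with a member.

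Cxcl5 was followed by Tenm3 (r = 0.992), the Y-linked demethylase gene Kdm5d (0.987) and Rab33a (0.983). Of 13 genes at 0.95 or more with Cxcl5, 5 were X- or Y-linked. So were 476 of the 19310 probe sets tested, a different base from the 4854 genes searched. That base has no SD limit and can hold several probe sets per gene. At the same cutoff the X- or Y-linked counts were 0 of 24 with Cxcl1, 0 of 28 with Cxcl2, 0 of 5 with Cxcl3, 0 of 8 with Pf4 and 1 of 34 with Ppbp. Genes such as Kdm5d split the 2 groups, so any gene with tight, separate groups follows them by construction. These counts therefore restate the separation of the Cxcl5 groups and add nothing to it. Kdm5d was at 1.86, 1.64 and 1.93 on the transgenic arrays and at 7.68, 7.51 and 7.46 on the control arrays. Cxcl5 and Kdm5d were both lower on all 3 transgenic arrays than on any control array, and sex and transgene cannot be told apart in the Cxcl5 difference. Ppbp was followed by Ssbp2 (0.997), Cln6 (0.991) and the pseudogene Gsdmcl-ps (0.986), which was at 8.53 on transgenic array 2 and 4.73 or less elsewhere. Pf4 was followed by Exoc3l4 (0.994), Gtdc1 (0.974) and 4930445K14Rik (0.974).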

How the data were processed

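The deposited values are log2 expression per probe set, made by the authors with GCRMA, which corrects for background, normalizes and summarises probes, per the submitters' processing notes. The sources used here give neither its version nor a genome build. That the values are log2 was inferred from their range, and they were used as deposited. Genes were named from the platform annotation, and a gene is represented by its brightest probe set (highest mean over all arrays). Groups come from the sample titles. Transgenic was compared with control by limma 3.58.1 in R 4.3.3 (lmFit, eBayes) over 19310 probe sets with a log2 value of at least 4 on at least 3 arrays, control probe sets left out, with Benjamini-Hochberg adjustment over all of them. The procedure was tested on simulated data. The precision is limited by the 3 arrays per group.

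Lists were described by counts and medians only. The medians of the members and of the cell type lists with each array left out were added after seeing the data. Named from each list are up to 3 genes of smallest p, and for each tested member the 3 genes of highest correlation. The members and lists were chosen with earlier results of these data known. No pairing by replicate number was seen: deviations of same-numbered arrays correlated at -0.267, -0.277 and -0.051. With 3 arrays per group these values cannot exclude a pairing. Alternatives were other filters, normalizations, prior variances, array weights, a replicate block, a floor at 4, no X- and Y-linked genes, another threshold and each array left out.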

Additional observations from a re-analysis of the deposited data

How the results depend on the processing

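None of the 6 tested chemokine genes was called in any setting, and the number with groups that did not overlap was 2 or 3. Of 90 recomputed differences, 86 kept their sign, at limma adjusted p from 0.335 to 0.999. Other filters, prior variances, the replicate block, the floor at 4 and removal of X- and Y-linked genes left each computed difference unchanged by construction. Signs could not turn in those settings, so the count of 86 does not measure robustness. The 4 that reversed were Cxcl2 without transgenic array 1 (-0.42), Ppbp without transgenic array 2 (-0.49), and Pf4 without transgenic array 2 (0.038) or without control array 3 (0.045). The cause was not tested. Over all settings Cxcl1 ran from -1.08 to -0.017, Cxcl2 from -0.42 to 0.60, Cxcl3 from 0.39 to 0.85, Cxcl5 from -0.59 to -0.50, Ppbp from -0.49 to 2.30 and Pf4 from -0.41 to 0.045. Ppbp was 0.32 with array weights. With the replicate number as a block, 8 probe sets of the whole array passed, 0 of them for these genes. Without X- and Y-linked genes 3 passed in place of 11, since that setting removes such genes by construction. With 3 arrays per group the 95% interval ran from -2.15 to 4.62 for Ppbp and from -1.12 to 1.45 for Cxcl2, so no absence of change is shown.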

Other observations

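Transgenic array 2, where Cxcl1, Cxcl2 and Pf4 were lowest, was also low for some genes outside the chemokine cluster, chosen here after their values were seen. Lcn2, lipocalin 2, an iron-trapping protein of neutrophils and inflamed epithelium, was at 12.07, 6.49 and 10.85 on the transgenic arrays and at 11.42, 11.16 and 12.13 on the control arrays. Sox17, a transcription factor of endothelium and endoderm, was at 5.49 on that array and at 10.07 or more on the other 5. The matrix protein gene Thbs1 was at 10.37, 7.47 and 9.85 on the transgenic arrays and at 9.05, 9.41 and 9.75 on the control arrays. Of 15 macrophage genes past the filter, 9 had their lowest value on that array, 60% beside 27.6% of all genes tested.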
